A study of Homo sapiens with 9 samples.

Results

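Eukaryotic translation initiation factors are the proteins that load a ribosome onto a messenger RNA and place it at the start codon. The genes described here were all protein-coding rows of the deposited table whose symbol starts with EIF and a digit, with a mean of at least 10 normalized counts over the 9 libraries. Of 56 protein-coding rows with such a symbol, 50 met the minimum, out of 15230 genes tested and 62710 in the table. The rule used no difference between treatments.

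The cells were A375R, a human melanoma line resistant to the kinase inhibitor PLX4032. By the study's methods this line is kept in medium that holds 2 µM PLX4032. The RNA-seq methods do not state whether PLX4032 was present during the treatments, so the DMSO group cannot be taken as free of it. One group of 3 libraries came from control cells, whose labels carry no dose and which the design text describes as DMSO, the solvent. Another group of 3 came from cells given 10 µM VHL-r for 2 h, and the last group of 3 from cells given 10 µM R4VPL3-1 for 2 h. R4VPL3-1 is the full PROTAC-like molecule, built to bring the ubiquitin ligase RNF4 to the VHL ligase, and in VHL-r the moiety that binds VHL stands alone. No transgene or gene deletion is named in the labels, and all samples came from the same resistant line, so the values describe that line only. The replicates are called biological repeats.

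In a cell, eIF2 carries the initiator tRNA to the small ribosomal subunit, eIF1, eIF1A and eIF5 control the choice of the start codon, and the large eIF3 complex holds the subunit together with the messenger RNA. The eIF4F complex, made of the cap-binding protein eIF4E, the scaffold eIF4G and the helicase eIF4A, brings the messenger RNA, and the 4E-binding proteins compete with eIF4G for eIF4E. Stress kinases phosphorylate the alpha subunit of eIF2, which blocks its recycling by eIF2B, lowers overall initiation and favours messages such as ATF4.

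The recovered library totals lay between 26435568 and 32085626 reads, with a median of 28165279. SOX10, listed here as a melanocyte lineage marker, lay between 7900 and 17935 normalized counts over the 9 libraries. In the same list MLANA was at 0 in all of them and TYR reached at most 2.14. MITF, DCT, S100B and S100A1 had medians of 1136, 1211, 689 and 2090, PMEL 33.0 and TYRP1 2.05. The cause of the MLANA zeros was not tested, and they are not read as absent expression. The dedifferentiation marker AXL was between 9240 and 12114, but SOX9 of the dedifferentiation list only between 7.87 and 26.6. Among markers of other cell types, the T cell marker CD3E was at most 3.63 and the myeloid marker LYZ lay between 73.8 and 151.5, while the keratins KRT10 and KRT14 lay between 1673 and 1942 and between 224.1 and 365.0 and KRT1 reached at most 1.0. The summed level of the 9 melanocyte markers, 6 of which had a median of at least 10, was 22880 to 24659 in DMSO, 13658 to 17018 with VHL-r and 12215 to 14591 with R4VPL3-1. The 4 dedifferentiation markers summed to 11877 to 13794, 10767 to 11876 and 10693 to 11765, and the 4 keratinocyte markers, 3 of them with a median of at least 10, to 2207 to 2305, 2003 to 2203 and 1915 to 2064. For these 3 lists the treated libraries lay below DMSO, and the part of these shifts in the results below was not tested. The gap was very small for the dedifferentiation list, with 11875.5 as highest treated and 11876.7 as lowest DMSO sum. For the keratinocyte list it was also small, with 2203.1 and 2206.8. Each sum rests largely on 1 gene, SOX10, AXL or KRT10, with medians of 10250, 10228 and 1809 over the libraries. The sums of the 4 leukocyte markers, 1 with a median of at least 10, overlapped between groups, at 120.8 to 163.3, 112.1 to 141.4 and 79.4 to 127.4, as did those of the 3 endothelial markers, at most 32.6 in any library. In bulk RNA, fewer cells of a type and less RNA per cell cannot be told apart.

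The bases before the transcription start are shown for 5 genes that the results turn on: the kinase gene with the highest rise, a helicase gene called with both compounds, the cap-binding protein, and the 2 genes that differed between the compounds. The sequences are from RefSeq on GRCh38.p14, 5′ to 3′ on the gene's strand, with motif matches in capitals. EIF2AK3 and EIF4E are shown over the whole 250 bases before the start, EIF4A3 over the 227 that lie outside annotated untranslated and coding exons. EIF4A2 and the downstream promoter of EIF5 are shown over 30 bases around a match, since alternative transcripts of these genes start further upstream, and the upstream promoter of EIF5 over 205 bases outside such exons.
EIF2AK3 (chr2:88627465-88627714, minus strand): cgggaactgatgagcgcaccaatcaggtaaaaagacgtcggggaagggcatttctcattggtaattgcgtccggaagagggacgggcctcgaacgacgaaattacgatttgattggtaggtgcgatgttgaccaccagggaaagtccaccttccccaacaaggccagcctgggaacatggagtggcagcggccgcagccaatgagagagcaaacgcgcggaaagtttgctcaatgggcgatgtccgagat
EIF4A3 (chr17:80147152-80147378, minus strand): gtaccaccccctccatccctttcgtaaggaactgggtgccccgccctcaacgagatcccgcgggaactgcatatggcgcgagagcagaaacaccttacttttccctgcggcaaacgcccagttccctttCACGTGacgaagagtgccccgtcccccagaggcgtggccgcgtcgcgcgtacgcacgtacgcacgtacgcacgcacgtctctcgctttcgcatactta
EIF4E (chr4:98929134-98929383, minus strand): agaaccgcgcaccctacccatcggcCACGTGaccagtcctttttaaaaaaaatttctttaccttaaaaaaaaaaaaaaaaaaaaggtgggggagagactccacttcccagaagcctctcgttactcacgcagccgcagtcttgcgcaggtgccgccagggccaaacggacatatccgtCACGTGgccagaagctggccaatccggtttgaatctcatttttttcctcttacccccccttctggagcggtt
EIF4A2 (chr3:186783535-186783564, plus strand): cggccacgagccTATAAAaaacgggtggtt
EIF5 upstream (chr14:103333987-103334191, plus strand): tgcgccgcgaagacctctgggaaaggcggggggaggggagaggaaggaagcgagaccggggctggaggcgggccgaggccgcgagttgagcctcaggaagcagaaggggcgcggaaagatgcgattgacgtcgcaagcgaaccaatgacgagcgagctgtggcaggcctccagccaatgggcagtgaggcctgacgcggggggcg
EIF5 downstream (chr14:103334826-103334855, plus strand): ctgctgcatttgTGAGTCAtcgcgcgctct

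In these lines, CACGTG is an E-box, a motif read the same on both strands that MYC and MITF family proteins are known to bind. TATAAA is a TATA box, and TGAGTCA matches the AP-1 motif TGANTCA, which was added to the search after the values had been seen. Of the 50 genes, 42 had a RefSeq promoter, giving 56 promoters among 35116 in the genome, and both strands were searched. An E-box was found in 11 of the 56, or 19.6%, against 6.34% of all promoters, and the genes were EIF1B, EIF2AK2, EIF2B3, EIF3F, EIF3K, EIF4A3, EIF4B, EIF4E, EIF4G1, EIF4H and EIF5A2. EIF4E held 2 E-boxes and EIF4A3 held 1. A TATA box was found only in EIF4A2, 30 bases before the start, whereas 10.7% of all promoters held one. The AP-1 motif was found in 5 of the 56, or 8.93%, against 6.57% of all, and the downstream one of the 2 EIF5 promoters held 2 matches. The upstream EIF5 promoter held no match to any motif searched. The C/EBP-ATF response element TGATGNAA, the heat shock element and the cAMP response element TGACGTCA were in none of the 56, and in 3.14%, 0.441% and 1.65% of all promoters. The promoter of EIF2AK3 held none of the 6 motifs searched. A match says only that the letters are there.

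The levels given here are those of the initiation factor genes that met the minimum, and they were not set against the levels of all genes. Of the 50, 44 had a mean of at least 1000 normalized counts, the means ran from 13.8 to 36239, and the median coefficient of variation within a group was 3.11%. Per kb of the canonical transcript, EIF5A was highest in DMSO at 28100 normalized counts per kb, followed by the eIF3 subunits EIF3I at 11100 and EIF3K at 10100, then by EIF1 at 9100 and EIF4G2 at 9080. EIF1 and EIF4G2 were too close to be ordered. EIF5A encodes the hypusine-containing factor that helps stalled ribosomes, and its paralogue EIF5A2 was at 67.6 per kb.

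Within the eIF3 complex, the subunits other than EIF3C had a median of 3740 per kb in DMSO. EIF3C stood apart at 98.6 per kb, and EIF3CL, a near-identical copy, had a mean of 7.52 and missed the minimum. Of the 100-base windows of EIF3C, 34.79% occur elsewhere in the genome, so reads from either copy may not have been assigned and the level of EIF3C is uncertain. The cap-binding protein EIF4E was at 589 per kb, well under the scaffold EIF4G1 at 5050, but 46.99% of its windows occur elsewhere. The same holds for 36.24% of the windows of EIF4H, 35.39% of EIF1AX, 31.74% of EIF5AL1, 28.03% of EIF4B and 20.51% of EIF2S2. The eIF2 alpha kinases had a median of 670 per kb in DMSO, near the 774 of the eIF2B genes. EIF2AK4 was at 1050, EIF2AK1 at 987, EIF2AK2 at 352 and EIF2AK3 at 128 per kb.

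**Figure D1:**
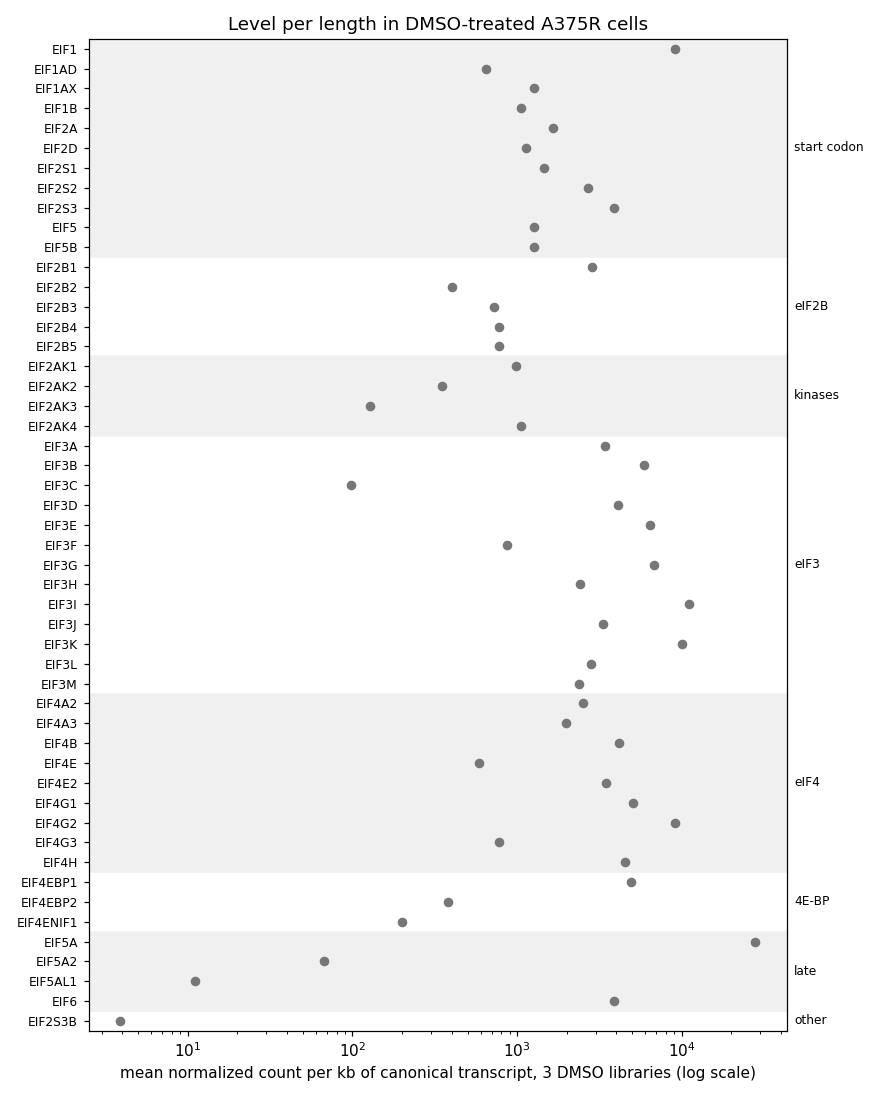
Mean normalized count per kb of canonical transcript in the 3 DMSO libraries, on a log axis, for the 50 initiation factor genes grouped by role. EIF5A lies at 28100 and EIF3I and EIF3K lie at 11100 and 10100, while EIF3C, at 98.6, and EIF2AK3, at 128, lie far to the left of their groups.

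In all, 6 matching genes missed the minimum. Those besides EIF3CL include EIF4A1, EIF4E3, EIF4E1B and EIF4EBP3, each listed at 0 in every library. EIF4A1 encodes the main helicase of eIF4F, and all 11 exons of its canonical transcript, over 100% of their bases, lie under exons of a neighbouring gene transcribed in the same direction. Reads that fall on 2 such genes are not assigned to either by the counting used. For EIF4EBP3 the share covered was 73.16%, for EIF4E3 it was 6.03% and for EIF4E1B 0.0%. These zeros are not read as absent expression, and the cause of those of EIF4E3 and EIF4E1B was not tested. Among the genes tested, an overlapping gene covers 58.49% of the canonical bases of EIF3L, 26.57% of EIF6, 13.07% of EIF1B and 8.98% of EIF5.

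Treatment moved the initiation factor genes little. Against DMSO, 12 of the 50 were called with VHL-r, or 24.0%, where 19.8% of all 15230 genes were called. With R4VPL3-1 also 12 of 50 were called, where the share over all genes was 24.9%. With each compound 8 genes were called higher and 4 lower; over all genes 10.3% were called higher and 9.51% lower with VHL-r, and 13.1% and 11.8% with R4VPL3-1. The call is a limma p, adjusted by Benjamini-Hochberg over all genes, of at most 0.05. The calls are close in number to the background and so say nothing particular about these genes. Both comparisons use the same 3 DMSO libraries.

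The changes were also small. The median log2 fold change of the 50 genes was −0.0016 with VHL-r and −0.0163 with R4VPL3-1, beside −0.0045 and −0.0063 over all genes. The median absolute log2 change was 0.0508 and 0.0601, under the 0.1226 and 0.138 of all genes. The median standard error was smaller for these genes as well, 0.0453 against 0.0805. With VHL-r no initiation factor gene changed by 1.5-fold or more. With R4VPL3-1 only EIF2S3B, with a mean of 13.8 normalized counts, was past 1.5-fold, at 1.73-fold, and it was not called (adjusted p = 0.111). Leaving out 1 library moved the numbers called against DMSO: genes called lower with VHL-r fell to 0 without VHL-r replicate 2, to 1 without DMSO replicate 1 and to 2 without DMSO replicate 2, DMSO replicate 3 or VHL-r replicate 1. Genes called higher with VHL-r fell to 5 without DMSO replicate 3 or VHL-r replicate 1. Genes called lower with R4VPL3-1 fell to 0 without DMSO replicate 1 or R4VPL3-1 replicate 1, to 1 without DMSO replicate 2, and to 2 without DMSO replicate 3 or R4VPL3-1 replicate 2. Calls over all 15230 genes, in either direction, fell in these settings too. With VHL-r they went from 3016 to between 2286, without DMSO replicate 2, and 2717, without DMSO replicate 3. With R4VPL3-1 they went from 3792 to between 2866, without R4VPL3-1 replicate 1, and 3455, without DMSO replicate 3.

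**Figure D2:**
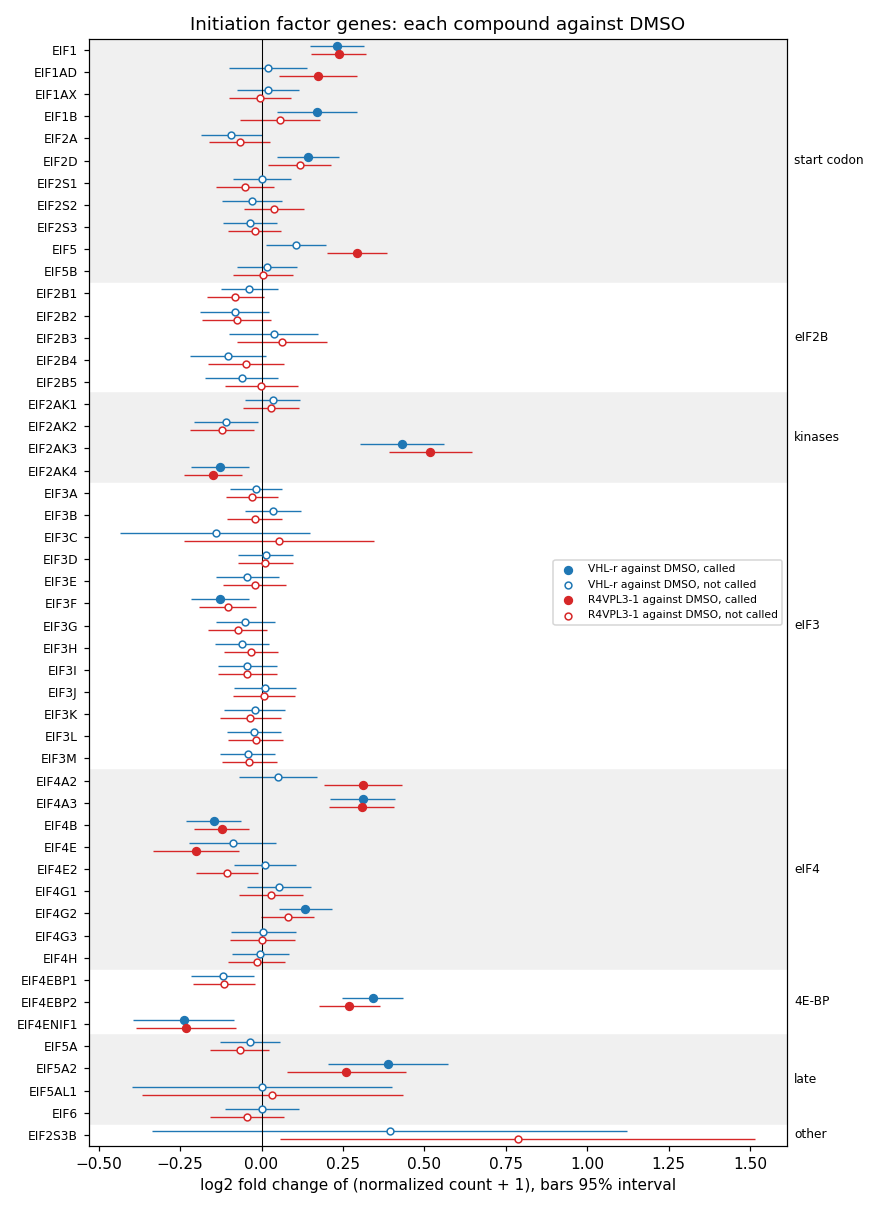
Log2 fold change of normalized count + 1 against DMSO for each of the 50 genes, with VHL-r in blue and R4VPL3-1 in red, filled where called and with 95% intervals as bars. EIF2AK3, at 0.43 and 0.52, lies farthest to the right among the called genes, EIF4ENIF1, at −0.24 and −0.23, lies farthest to the left, and the eIF3 subunits sit close to 0.

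Among the genes for the initiator tRNA and the start codon, EIF1 rose with both compounds. EIF1 (chr17:41688885-41692668, GRCh38) keeps the scanning ribosome from starting at a poor start codon. Its normalized counts were 22035, 21167 and 20621 in DMSO, 24685, 25146 and 25104 with VHL-r, and 25300, 25672 and 24238 with R4VPL3-1. All 6 treated libraries lay above all DMSO libraries. On the log2 scale the changes were 0.23 ± 0.04 (SE) and 0.24 ± 0.04, or 1.17-fold and 1.18-fold, with limma adjusted p of 0.000233 and 0.000141, and the calls held under all 21 alternatives.

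EIF1B, the paralogue of EIF1, was called with VHL-r alone, with a log2 fold change of 0.17 ± 0.06 (SE) and a limma adjusted p of 0.047. Its counts were 1030, 1116 and 1006 in DMSO, 1181, 1187 and 1176 with VHL-r and 1049, 1146 and 1083 with R4VPL3-1. The VHL-r libraries lay above all others, but the difference between R4VPL3-1 and VHL-r, −0.11, was not called (adjusted p = 0.579). The VHL-r call was lost when any 1 of 6 libraries was left out, with adjusted p from 0.0511 without R4VPL3-1 replicate 2 to 0.168 without DMSO replicate 3; the others were DMSO replicate 1, at 0.136, and VHL-r replicates 1, 2 and 3, at 0.0944, 0.13 and 0.0767. It was also lost with DESeq2 (0.055) and with no filter on low values (0.077). EIF2D, which can deliver tRNA without eIF2, was at 2285 ± 34.8 (SD, n = 3) in DMSO, 2522 ± 69.1 with VHL-r and 2478 ± 36.7 with R4VPL3-1. It was called with VHL-r (log2 fold change 0.14, adjusted p = 0.0323) and not with R4VPL3-1 (0.12, adjusted p = 0.0689). The EIF2D call was lost without DMSO replicate 1, 2 or 3 (adjusted p = 0.108, 0.0849 and 0.0524) and without VHL-r replicate 1 or 3 (adjusted p = 0.0734 and 0.0939), and with no filter on low values (0.0646).

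EIF1AD, an eIF1A domain protein, was called with R4VPL3-1 alone. Its counts were 1894, 1937 and 1837 in DMSO, 2026, 1837 and 1889 with VHL-r, and 2242, 2203 and 1962 with R4VPL3-1. The R4VPL3-1 libraries lay above DMSO, but the lowest of them was within the VHL-r range. The log2 fold change against DMSO was 0.17 ± 0.06 (SE) with an adjusted p of 0.0295, and the call was lost without DMSO replicate 1 or 3 (adjusted p = 0.0629 and 0.0985) and without R4VPL3-1 replicate 1 or 2 (0.147 and 0.115), and with no filter on low values (0.0512). The subunits of eIF2 itself were not called with either compound. EIF2S1, the alpha subunit that the stress kinases phosphorylate, was at 6017 ± 205.9 (SD, n = 3) in DMSO, and its log2 differences of 0.001 and −0.05 had 95% intervals from −0.088 to 0.091 and from −0.14 to 0.039. EIF2S2, EIF2S3, EIF2A, EIF1AX and EIF5B were not called either.

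The 5 genes of eIF2B, which reloads eIF2 with GTP, had no call in any comparison. The shares called over all genes were 19.8% with VHL-r, 24.9% with R4VPL3-1 and 1.87% between the compounds. The log2 fold changes of the eIF2B genes lay between −0.10 and 0.04 with VHL-r and between −0.08 and 0.06 with R4VPL3-1, and the widest 95% bounds over both were −0.22 and 0.20. EIF2B1 was the most abundant of the 5 at 2860 normalized counts per kb in DMSO, and EIF2B2, at 402 per kb, the least.

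Of the 4 kinases of eIF2 alpha, 1 rose and 1 fell with each compound, beside 19.8% of all genes called with VHL-r and 24.9% with R4VPL3-1. EIF2AK3 (chr2:88556741-88691518, GRCh38) encodes PERK, the kinase in the membrane of the endoplasmic reticulum that senses unfolded proteins. Its normalized counts were 580, 583 and 572 in DMSO, 805, 758 and 778 with VHL-r, and 838, 831 and 819 with R4VPL3-1. The 3 groups did not overlap, with DMSO lowest and R4VPL3-1 highest. The log2 fold change was 0.43 ± 0.06 (SE) with VHL-r, or 1.35-fold, and 0.52 ± 0.06 with R4VPL3-1, or 1.43-fold, with limma adjusted p of 2.76e-05 and 1.84e-06. These were the highest rises among the called initiation factor genes, and both calls held under all 21 alternatives. The difference between the compounds was 0.09, with a 95% interval from −0.041 to 0.216, and was not called (adjusted p = 0.751).

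EIF2AK4 encodes GCN2, the kinase that senses uncharged tRNA. Its counts were 6007, 5863 and 5538 in DMSO, 5314, 5262 and 5343 with VHL-r, and 5104, 5279 and 5308 with R4VPL3-1. Every treated library was below every DMSO library. The log2 fold changes were −0.13 ± 0.04 (SE) and −0.15 ± 0.04, with adjusted p of 0.0395 and 0.0134. The VHL-r call was lost without DMSO replicate 1 or 2 (adjusted p = 0.169 and 0.131), VHL-r replicate 1, 2 or 3 (0.0751, 0.132 and 0.0585) or R4VPL3-1 replicate 2 (0.0511), and with no filter on low values (0.0838). The R4VPL3-1 call was lost without DMSO replicate 1 or 2 (0.0735 and 0.0588) or R4VPL3-1 replicate 1 (0.068). EIF2AK1, which encodes the heme-regulated kinase, and EIF2AK2, which encodes the double-stranded RNA kinase PKR, were not called; EIF2AK2 had log2 fold changes of −0.11 and −0.12 with adjusted p of 0.111 and 0.0628.

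**Figure D3:**
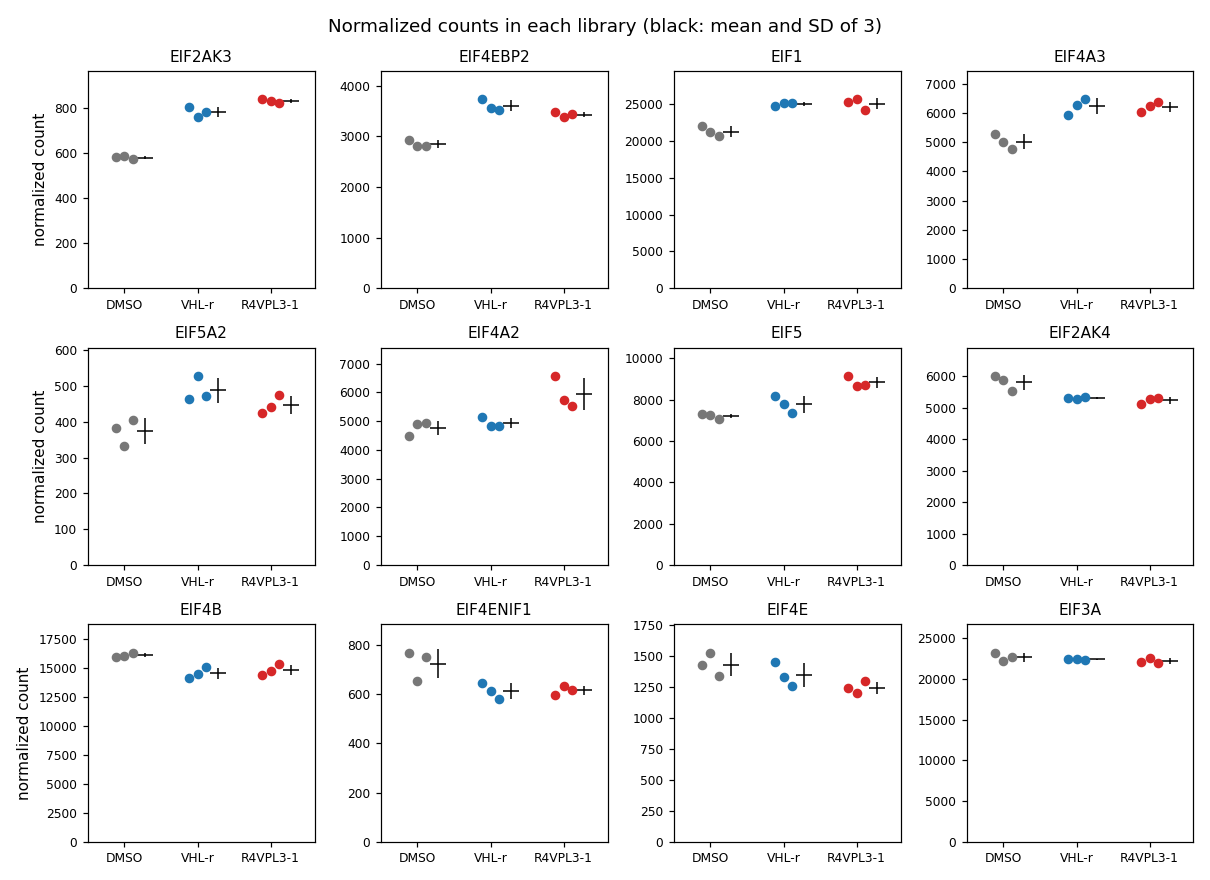
Normalized counts in each of the 3 DMSO (grey), VHL-r (blue) and R4VPL3-1 (red) libraries for 12 initiation factor genes, with the group mean and SD in black and axes from 0. EIF2AK3 stands at 572 to 583 in DMSO and at 758 to 838 in the treated libraries, EIF4A2 and EIF5 are highest with R4VPL3-1, and EIF3A lies between 21921 and 23214 in all 9 libraries.

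Of the 13 eIF3 genes, 1 was called in any comparison. Over all genes, 19.8% were called with VHL-r, 24.9% with R4VPL3-1 and 1.87% between the compounds. Without EIF3C, the log2 fold changes of the 12 subunit genes lay between −0.13 and 0.04 with VHL-r and between −0.10 and 0.01 with R4VPL3-1. Between the compounds they lay between −0.06 and 0.03, and none was called. EIF3A, the largest subunit, was at 23214, 22153 and 22647 in DMSO, 22414, 22395 and 22376 with VHL-r, and 22117, 22600 and 21921 with R4VPL3-1. All 3 ranges overlap. The 95% intervals of its log2 fold changes ran from −0.097 to 0.062 and from −0.108 to 0.05.

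EIF3F was the 1 eIF3 gene called, and only in the comparison of VHL-r with DMSO. Its counts were 6128, 5838 and 6030 in DMSO, 5313, 5508 and 5660 with VHL-r, and 5470, 5671 and 5602 with R4VPL3-1, so that all treated libraries were below DMSO. The log2 fold change was −0.13 ± 0.04 (SE) with VHL-r (adjusted p = 0.0379) and −0.10 with R4VPL3-1 (adjusted p = 0.0798). The call was lost without DMSO replicate 1, 2 or 3 (adjusted p = 0.133, 0.0522 and 0.0934) and without VHL-r replicate 1 or 2 (0.14 and 0.103), and with no filter on low values (0.0821). The compounds themselves differed by 0.02, with a 95% interval from −0.065 to 0.111.

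In the group of the cap-binding complex, EIF4A3 rose and EIF4B fell with both compounds, and EIF4E fell with R4VPL3-1. EIF4A3 (chr17:80134369-80147151, GRCh38) encodes a helicase of the exon junction complex, a relative of the eIF4A of initiation. It was at 5300, 5018 and 4760 in DMSO, 5934, 6279 and 6480 with VHL-r, and 6037, 6238 and 6368 with R4VPL3-1. All treated libraries were above DMSO. The change was 0.31 ± 0.05 (SE) on the log2 scale for each compound, 1.24-fold, with limma adjusted p of 6.44e-05 and 5.29e-05, and both calls held under all 21 alternatives. Its promoter, shown above, was 1 of the 11 with an E-box.

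EIF4B, which stimulates the eIF4A helicase, was at 15961, 15994 and 16286 in DMSO, 14078, 14450 and 15042 with VHL-r, and 14401, 14678 and 15281 with R4VPL3-1. Both treated groups lay below DMSO. The log2 fold changes were −0.15 ± 0.04 (SE) and −0.12 ± 0.04, with adjusted p of 0.0124 and 0.0322. The VHL-r call was lost without VHL-r replicate 1 or 2 (adjusted p = 0.0577 and 0.0571). The R4VPL3-1 call was lost without DMSO replicate 1, 2 or 3 (0.0555, 0.0815 and 0.0914), VHL-r replicate 2 (0.0544) or R4VPL3-1 replicate 1 or 2 (0.139 and 0.0914), with edgeR (0.051), with no filter on low values (0.0738) and after rescaling to the upper quartile (0.0673).

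EIF4E, whose protein binds the cap, was called lower with R4VPL3-1. Its counts were 1429, 1524 and 1335 in DMSO, 1448, 1329 and 1257 with VHL-r, and 1236, 1197 and 1294 with R4VPL3-1. The R4VPL3-1 libraries lay below DMSO and overlapped the VHL-r range. The log2 fold change was −0.20 ± 0.06 (SE), or 0.87-fold, with an adjusted p of 0.0246, and the call was lost without DMSO replicate 1 or 2 (0.0591 and 0.148) and without R4VPL3-1 replicate 1 or 2 (0.0638 and 0.101). With VHL-r the change was −0.09 (adjusted p = 0.388), and the difference between the compounds, −0.11, had a 95% interval from −0.245 to 0.021. The share of EIF4E windows found elsewhere in the genome, given above, applies to these counts.

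EIF4G2, a scaffold relative that lacks the eIF4E-binding site, was at 34460 ± 804.8 (SD, n = 3) in DMSO, 37833 ± 827.0 with VHL-r and 36424 ± 401.0 with R4VPL3-1. It was called with VHL-r (log2 fold change 0.14, adjusted p = 0.0167) and not with R4VPL3-1 (0.08, adjusted p = 0.145). The call was lost without DMSO replicate 3, VHL-r replicate 1 or VHL-r replicate 2 (adjusted p = 0.0733, 0.0627 and 0.0686). EIF4G1, EIF4G3, EIF4H and EIF4E2 were not called in any comparison.

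The regulators of eIF4E moved in different directions. EIF4EBP2 (chr10:70404145-70428618, GRCh38) encodes a 4E-binding protein that blocks eIF4F assembly until mTOR phosphorylates it. Its counts were 2933, 2805 and 2803 in DMSO, 3738, 3562 and 3523 with VHL-r, and 3481, 3379 and 3441 with R4VPL3-1. DMSO was lowest, VHL-r highest, and no groups overlapped. The log2 fold changes were 0.34 ± 0.05 (SE) and 0.27 ± 0.05, 1.27-fold and 1.21-fold, with limma adjusted p of 9.38e-06 and 0.000105, and both calls held under all 21 alternatives. The difference between the compounds, −0.07, had a 95% interval from −0.164 to 0.022 and was not called (adjusted p = 0.691).

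EIF4EBP1, the better known 4E-binding protein, was at 4080 ± 103.0 (SD, n = 3) in DMSO, 3757 ± 161.7 with VHL-r and 3765 ± 96.9 with R4VPL3-1. Its log2 fold changes of −0.12 and −0.12 were not called (adjusted p = 0.0734 and 0.071). EIF4ENIF1, which carries eIF4E into the nucleus and to P-bodies, was at 768, 655 and 749 in DMSO, 645, 612 and 581 with VHL-r, and 596, 632 and 619 with R4VPL3-1. The treated libraries lay below DMSO, though DMSO replicate 2 and VHL-r replicate 1 were close. The log2 fold changes were −0.24 ± 0.07 (SE) and −0.23 ± 0.07, with adjusted p of 0.026 and 0.0251. The VHL-r call was lost without DMSO replicate 1 or 3 (0.128 and 0.0929) or VHL-r replicate 2 or 3 (0.0753 and 0.0941), and the R4VPL3-1 call without DMSO replicate 1 or 3 (0.123 and 0.0882) or R4VPL3-1 replicate 1 (0.0918).

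Among the late factors, EIF5A2 was called higher with both compounds. EIF5A2 is the tissue-restricted paralogue of EIF5A. Its counts were 384, 334 and 405 in DMSO, 465, 528 and 472 with VHL-r, and 425, 442 and 475 with R4VPL3-1, with all treated libraries above DMSO. Its log2 fold changes were 0.39 ± 0.09 (SE), 1.31-fold, and 0.26 ± 0.09, 1.20-fold, with limma adjusted p of 0.00304 and 0.0346. The VHL-r call held under all 21 alternatives. The R4VPL3-1 call was lost without DMSO replicate 1 or 2 (0.0507 and 0.204) or R4VPL3-1 replicate 2 or 3 (0.0708 and 0.113). The far more abundant EIF5A was at 35468 ± 1221.3 (SD, n = 3) in DMSO, 34634 ± 1805.0 with VHL-r and 33862 ± 260.6 with R4VPL3-1, and was not called. EIF6, which keeps the large ribosomal subunit from joining too early, was not called, nor was EIF5AL1.

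R4VPL3-1 and VHL-r share the VHL-binding moiety and were given at the same dose for the same time, so that this 1 pair could be compared directly. Of the 50 genes, 2 differed, both higher with R4VPL3-1, or 4.0%, where 1.87% of all genes were called, 1.14% higher and 0.729% lower. EIF4A2 (chr3:186783205-186789897, GRCh38) encodes the second eIF4A helicase. Its counts were 4494, 4904 and 4934 in DMSO, 5145, 4850 and 4850 with VHL-r, and 6574, 5722 and 5523 with R4VPL3-1. The VHL-r and DMSO ranges overlapped, the R4VPL3-1 libraries lay above both, and R4VPL3-1 replicate 1 was well above the other 2. The log2 difference from VHL-r was 0.26 ± 0.06 (SE), 1.20-fold, with a 95% interval from 0.141 to 0.379 and a limma adjusted p of 0.0147. It was lost without VHL-r replicate 2 or 3 (adjusted p = 0.11 and 0.0663) and without R4VPL3-1 replicate 1, where the difference was 0.18 (0.143). Against DMSO the log2 fold change was 0.31 (adjusted p = 0.000314) with R4VPL3-1, a call held under all 21 alternatives, and 0.05 (adjusted p = 0.607) with VHL-r.

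EIF5 (chr14:103333544-103345025, GRCh38) makes eIF2 hydrolyse GTP at the start codon. Its counts were 7303, 7242 and 7087 in DMSO, 8159, 7778 and 7363 with VHL-r, and 9146, 8657 and 8687 with R4VPL3-1. The 3 groups did not overlap, with VHL-r between the other two. The log2 difference of R4VPL3-1 from VHL-r was 0.19 ± 0.04 (SE), 1.14-fold, with a 95% interval from 0.094 to 0.278 and a limma adjusted p of 0.0277. It was lost without VHL-r replicate 2 or 3 (adjusted p = 0.132 and 0.159), without R4VPL3-1 replicate 1 or 2 (0.209 and 0.0588) and with no filter on low values (0.0621). Against DMSO the log2 fold change was 0.29 with R4VPL3-1 (adjusted p = 3.84e-05), held under all 21 alternatives, and 0.11 with VHL-r (adjusted p = 0.104).

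For the other 48 genes no difference between the compounds was called. Over the 42 of these with a mean of at least 1000 normalized counts, the 95% intervals of the log2 difference stayed between −0.245 and 0.274. Over all 48 they ran from −0.369 to 1.123, the upper bound being that of EIF2S3B. EIF1AD had the largest difference among the 42, 0.15, with an interval from 0.035 to 0.274 (adjusted p = 0.281), and EIF4E2 among the lowest, −0.12, with an interval from −0.213 to −0.023 (adjusted p = 0.315). A p that misses the threshold does not show that the compounds act alike on these genes.

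**Figure D4:**
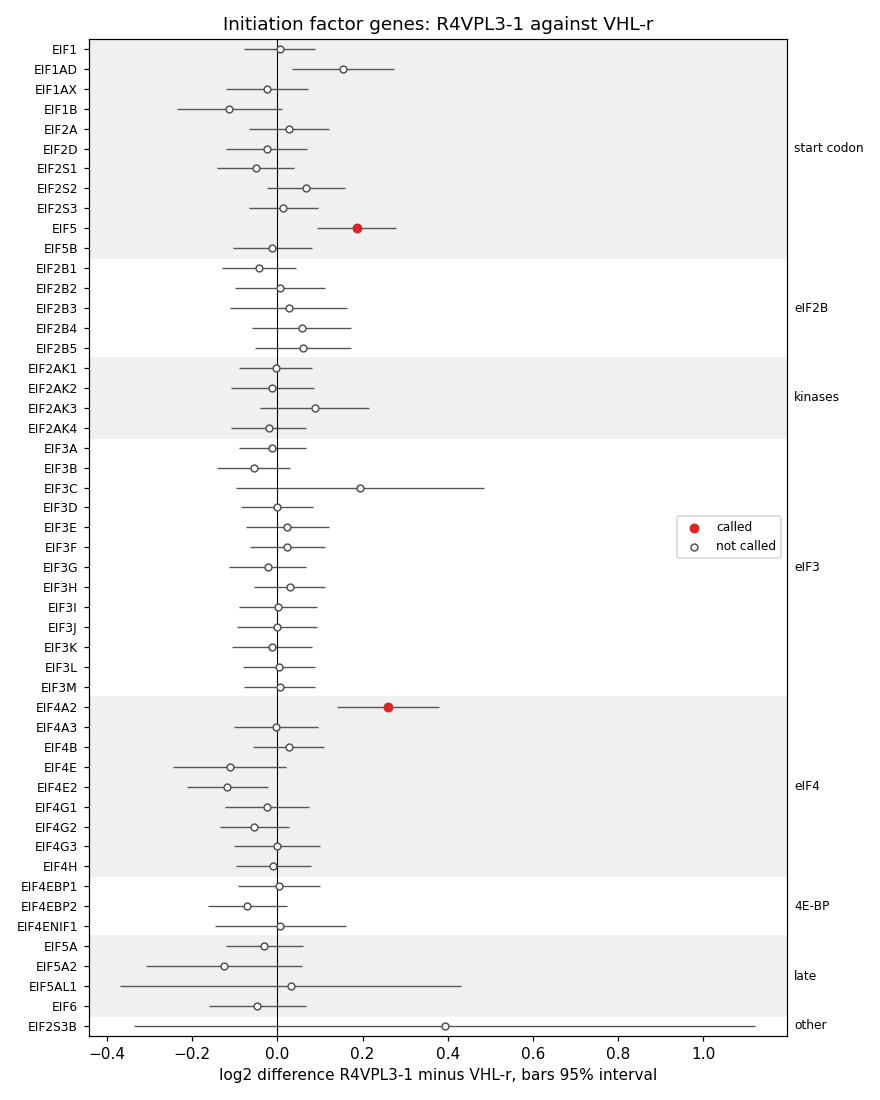
Log2 difference of R4VPL3-1 from VHL-r for each of the 50 genes with 95% intervals, red where called. EIF4A2, at 0.26, and EIF5, at 0.19, are the called genes, and the widest interval, from −0.336 to 1.123, is that of EIF2S3B.

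Other genes of translation were taken from a list of 58, of which 54 were tested. With VHL-r 14 were called higher and 3 lower, with R4VPL3-1 13 and 4, and between the compounds 5 were higher with R4VPL3-1 and 1 lower. Over all genes tested, 10.3% were called higher and 9.51% lower with VHL-r, 13.1% and 11.8% with R4VPL3-1, and 1.14% and 0.729% between the compounds. The 1 tested gene of eIF5A modification, DOHH, and the 2 mitochondrial initiation factors were not called. The median log2 fold changes over the 54 were 0.044, 0.036 and −0.009. Among the 11 elongation factors tested, 1 was called higher and 1 lower with each compound and none differed between them. GFM1, the mitochondrial elongation factor, was the one lower with both, at −0.15 and −0.17. Among 7 termination and recycling genes, GSPT2, a release factor, was 0.41 lower on the log2 scale with R4VPL3-1 than with VHL-r (728 ± 20.6 with VHL-r and 547 ± 31.0 with R4VPL3-1, SD, n = 3, adjusted p = 0.00129).

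Among 21 poly(A)-binding proteins and regulators of initiation, 8 were called higher and 1 lower with VHL-r, 7 and 2 with R4VPL3-1, and none differed between the compounds, beside 10.3% and 9.51%, 13.1% and 11.8%, and 1.87% of all genes. MKNK2, a kinase that phosphorylates eIF4E, went from 1190 ± 51.5 (SD, n = 3) in DMSO to 2482 ± 219.1 with VHL-r and 2346 ± 29.6 with R4VPL3-1, log2 fold changes of 1.06 and 0.98 (limma adjusted p = 5.93e-11 and 7.31e-11). This was larger than the change of any called initiation factor gene. Its relative MKNK1 was not called, at 0.10 and 0.05. TSC1, which restrains mTOR, was higher by 0.37 and 0.42 (adjusted p = 0.000106 and 1.86e-05), while MTOR was higher by 0.13 and 0.15 (0.0403 and 0.0164) and RPTOR, its partner in mTORC1, lower, at −0.15 and −0.22 (0.0392 and 0.00302). PDCD4, an inhibitor of eIF4A, was higher by 0.19 and 0.26 (0.046 and 0.006).

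The list of 12 genes covered the eIF2 alpha phosphatase and the response to eIF2 alpha phosphorylation, with GCN1 and IMPACT among them. Of these 12, 4 were called higher and 1 lower with VHL-r, and 5 higher with R4VPL3-1. Between the compounds, 5 were higher with R4VPL3-1 than with VHL-r. Over all genes, 10.3%, 13.1% and 1.14% were called higher in these comparisons, and 9.51% lower with VHL-r. ATF4, the transcription factor of the response, was at 6332 ± 127.7 (SD, n = 3) in DMSO, 7520 ± 206.6 with VHL-r and 9947 ± 348.0 with R4VPL3-1, and its log2 difference between the compounds was 0.40 (limma adjusted p = 2.62e-06). DDIT3, which encodes CHOP, was at 274 ± 22.3, 384 ± 18.2 and 1241 ± 267.7, with a difference of 1.67 (adjusted p = 3.84e-09). SESN2, at 600 ± 33.6, 1578 ± 161.0 and 2256 ± 178.8, was already 1.39 higher with VHL-r than in DMSO (limma adjusted p = 2.43e-11). Its difference between the compounds was 0.52 (0.000134). TRIB3 did not rise, at 1379 ± 121.3 in DMSO, 1230 ± 34.2 with VHL-r and 1237 ± 95.9 with R4VPL3-1, and was not called in any comparison. DDIT4, an inhibitor of mTORC1 signalling, was lower with VHL-r (2261 ± 166.6) than in DMSO (3265 ± 78.0) and far higher with R4VPL3-1 (14828 ± 4259.4), log2 fold changes of −0.53 and 2.14 (adjusted p = 0.00477 and 7.26e-11). PPP1R15A, a subunit that directs the phosphatase to eIF2 alpha, was at 6097 ± 689.3, 6464 ± 144.6 and 9613 ± 1285.1, with a difference of 0.56 (adjusted p = 9.54e-05). Its relative PPP1R15B was higher only in VHL-r against DMSO, by 0.27 (adjusted p = 0.00058), and the difference between the compounds, −0.19, was not called (adjusted p = 0.0649). None of the 4 eIF2 alpha kinase genes was called between the compounds, EIF2AK3 included.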

How the data were processed

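RNA from 9 cultures of A375R cells was measured by stranded poly(A) RNA-seq. As the methods state, the authors aligned single 100-base reads to GRCh38 with the Ensembl annotation by STAR, counted reads with htseq-count set to reverse, and normalized with DESeq2 1.36.0. The deposited signal is the count divided by a size factor, to 2 decimals. Size factors ran from 0.9341 to 1.1012, and 100.0% of values were whole reads within 0.1 read.

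The test was limma 3.58.1 (R 4.3.3, trend option) on log2(value + 1) over 15230 genes with a mean of at least 10, with 9 libraries in one single-factor fit and Benjamini-Hochberg adjustment; intervals are 95%. Alternatives used recovered reads (edgeR 4.0.16, DESeq2 1.42.0), other scalings, filters and pseudocounts, and left out each library. The pseudocount makes fold changes of low genes too small. Overlaps and levels per kb used GENCODE 44, and 100-base windows were searched in the genome. The members and lists were chosen with earlier results of these data known. Values of each library are given for genes called between the compounds and, against DMSO, for the 6 called genes with the largest rise and the 6 with the largest fall in each comparison; other members were given by counts, ranges and examples, some of them, like the genes of the other lists, chosen after their values were seen. The labels call the control samples WT.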

Additional observations from a re-analysis of the deposited data

Results flagged for a closer look

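EIF4A2 and EIF5 were picked out because the effect of R4VPL3-1 differed from that of VHL-r by the limma contrast between the compounds. The log2 difference was 0.26 for EIF4A2 (adjusted p = 0.0147) and 0.186 for EIF5 (adjusted p = 0.0277), with all 3 R4VPL3-1 libraries above all 3 VHL-r libraries for both genes. Leaving out R4VPL3-1 replicate 1 gave 0.18 (adjusted p = 0.143) for EIF4A2 and 0.16 (adjusted p = 0.209) for EIF5. With VHL-r replicate 2 left out the adjusted p was 0.11 and 0.132, and with VHL-r replicate 3 left out it was 0.0663 and 0.159. Without R4VPL3-1 replicate 2, the adjusted p for EIF5 was 0.0588.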

How the results depend on the processing

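No named call changed direction under the 21 alternatives, but the medians, all close to 0, changed sign under some. At an adjusted p of at most 0.01, genes called higher against DMSO fell to 5 with VHL-r and to 6 with R4VPL3-1. Those called lower fell to 0 with each compound against DMSO, and those higher with R4VPL3-1 than with VHL-r to 0. Calls over all genes at that threshold fell from 3016 to 1885 with VHL-r and from 3792 to 2494 with R4VPL3-1. Between the compounds they fell from 285 to 196. With no filter on low values, 2 genes were lower with VHL-r and 1 was higher with R4VPL3-1 than with VHL-r. Of the 30304 genes then tested, 2724 were called with VHL-r, 3520 with R4VPL3-1 and 253 between the compounds. The median log2 fold change with VHL-r against DMSO became 0.0022 with TMM and 0.0066 after rescaling to the upper quartile, that with R4VPL3-1 against DMSO 0.0015 after rescaling to the upper quartile, and that between the compounds 0.0047 with TMM and 0.0086 with the upper quartile; edgeR gave 0.002 with VHL-r and 0.0036 between the compounds. Leaving out 1 library, genes called higher and lower ranged from 5 to 8 and from 0 to 4 with VHL-r (median log2 fold change −0.0269 to 0.0028), from 6 to 8 and from 0 to 5 with R4VPL3-1 (−0.029 to 0.003), and from 0 to 3 and from 0 to 0 between the compounds (−0.0066 to 0.0014). Calls over all genes then ranged from 2286 to 3201 with VHL-r, from 2866 to 3895 with R4VPL3-1 and from 182 to 358 between the compounds. The causes were not tested. With the replicate block, 8 genes were higher and 4 lower with VHL-r, 8 and 5 with R4VPL3-1, and 2 and 0 between the compounds. The main fit did not treat replicate numbers as pairs and kept the single factor of the study's methods. Same-numbered libraries correlated by −0.006 to 0.121, with 2 of 9 pairs over 0.1, and other pairs by −0.148 to 0.098. For 4 of 9 libraries the best match in both other groups had their own number. Over all genes, the block raised the calls from 3016 to 3451 with VHL-r and from 3792 to 4241 with R4VPL3-1. Between the compounds they rose from 285 to 389. Whether equal numbers share a batch was not tested. The intervals were widest for EIF2S3B and EIF5AL1, the genes with the lowest counts.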
